A study of Homo sapiens with 32 samples.

Results

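The interaction between palbociclib (PB) and retinoic acid (RA) was read from acetylation of histone H3 at lysine 27 (H3K27ac) over all 92108 deposited regions, 92108 of 92108 in all, with no selection on a called change. The 16 ChIP libraries of 32 samples form a 2 by 2 design, with DMSO, PB, RA and PB+RA at 4 ChIP libraries each, and the 16 inputs served only as the authors' reference. All libraries came from SK-N-BE(2)C, an established neuroblastoma line with amplified MYCN, kept for 5 days in DMSO (the solvent), 1 µM PB, 10 µM RA or both drugs at these doses. According to the methods the libraries within a group are biological replicates, and a single cell line stands for the tumour type throughout. For each region the interaction value was the deposited mean log2 concentration of PB+RA, minus that of PB, minus that of RA, plus that of DMSO. A value of 0 means that the log2 effects of the single drugs added up to the effect of the combination. A positive value means that PB+RA lay above that sum, and a negative value that it lay below it. The concentrations are the authors' group means of normalised reads and carry no spread, so this value has no error of its own and was not tested.

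H3K27ac marks active enhancers and promoters. RA binds nuclear receptors (RARs) that sit on DNA as dimers with retinoid X receptors, and a classical binding site, called DR5, is a direct repeat of a short half-site with a spacer of 5 bases. PB blocks the cyclin D-dependent kinases CDK4 and CDK6, which phosphorylate RB and thereby release E2F factors for entry into S phase. The study asked what the combination adds to either drug, and the interaction value puts this question to each region: was the RA effect the same without and with PB?

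As a check of the label, a peak in all 4 DMSO libraries lay within 3 kb of a start site of 6 of 7 markers of the adrenergic (sympathetic neuron-like) type, among them HAND2, GATA3, ISL1, TH and DBH, while at PHOX2A 3 of the 4 had one. The count of adrenergic markers was 6 in each treated group too. Of 14 immune genes, 1 (CD14) had such a peak in all 4 DMSO libraries, 4 in all PB, 3 in all RA and 2 in all PB+RA libraries. Of 11 endothelial genes, 4 did with DMSO (CDH5, CLDN5, ENG and ESAM), 4 in the PB group, 4 in the RA group and 2 in the PB+RA group. The part of other cell types in the results was not tested. Read depth per library was unknown. Within a group, libraries 1 and 2 and libraries 3 and 4 tended to deviate together (r of deviations from -0.212 to 0.567, above 0.1 in 5 of 8 pairs), and libraries from different such pairs did not (from -0.802 to -0.177, 16 pairs). The labels give no batch. The number of peaks ranged from 64516 to 104392 over the 16 libraries. None of 6 properties of the libraries showed an interaction of the drugs in a two-sided permutation test: adjusted p was 0.792 for the number of peaks, the bases under peaks, the number of regions with a peak, the share of those near start sites, their median GC content and the median peak fold enrichment alike.

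DR5 matches are shown first for RA-responsive genes whose RA effect was much the same without and with PB, and for TH as a contrast. The regions of CYP26A1 and DHRS3 were higher with RA both without and with PB, and both held a DR5 match, while the DR5-bearing region of TH was lower with RA. The sites are shown with the 17 matching bases in capitals and 20 bases on either side, read from GRCh37 (hg19).
CYP26A1 (chr10:94830259-94830315, minus strand): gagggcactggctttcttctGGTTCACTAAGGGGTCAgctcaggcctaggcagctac
CYP26A1 (chr10:94831654-94831710, plus strand): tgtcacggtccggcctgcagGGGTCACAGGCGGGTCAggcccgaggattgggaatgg
DHRS3 (chr1:12664588-12664644, minus strand): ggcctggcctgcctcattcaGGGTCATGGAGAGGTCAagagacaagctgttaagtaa
TH (chr11:2193920-2193976, minus strand): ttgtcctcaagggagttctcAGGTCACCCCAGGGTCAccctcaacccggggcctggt
Over whole regions on the main chromosomes, searched on both strands, 860 of 92092 (0.934%) held a DR5 match. Such regions were wide, with a median of 4505 bases against 1728 for all. Where the concentration was higher with RA alone by more than 1 on the log2 scale, the 230 regions with a DR5 match had a median RA effect of 1.79 without PB and 1.67 with PB. All 13423 such regions had medians of 1.48 and 1.10. The RA effect without PB was used to choose both sets, so only the effect with PB is free of the choice. A match describes the letters and does not show that a receptor was bound.

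The start-site region of PDE10A, a phosphodiesterase that degrades cAMP and cGMP, gave the clearest case of an RA effect that was missing with PB. The 250 bases before a start site near the middle of that region are shown. The interaction was measured over the whole region and was not placed at this promoter. None of the 9 motifs searched was found in these bases.
PDE10A (chr6:166400092-166400341, minus strand): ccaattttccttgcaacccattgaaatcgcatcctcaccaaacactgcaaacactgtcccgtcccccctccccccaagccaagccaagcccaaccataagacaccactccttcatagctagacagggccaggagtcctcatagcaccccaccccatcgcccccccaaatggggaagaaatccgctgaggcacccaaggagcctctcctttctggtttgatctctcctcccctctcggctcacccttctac

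Most regions lay near additivity. The median interaction value was 0.09, with an SD of 0.62 over regions, and 56363 regions (61.2%) were within 0.5 of 0. Values above 1 were found at 3927 regions (4.26%) and values below -1 at 5177 (5.62%), and the extremes were -3.98 and 3.66. On a linear scale, with PB+RA set against PB plus RA minus DMSO, the same limits gave 11267 (12.2%) above and 3112 (3.38%) below, so the balance of the ends depended on the scale. Where PB plus RA minus DMSO was negative, it was set to 0. The linear value there is close to the PB+RA concentration itself, as at the start site of NEFH (8.6). How many of the 11267 regions this affected was not counted. The spread was widest where signal was weak, with an SD of 0.92 in the lowest of 10 classes of mean concentration and 0.35 in the highest. In a better-measured set of 65943 regions, where some group had 3 or 4 libraries with a peak and no group's concentration was under 3, 2008 (3.05%) were above 1 and 2352 (3.57%) below -1.

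Over all regions, RA effects taken from group means spread more widely without PB than with it. The spread of PB effects was about equal without and with RA. The RA effect without PB (RA against DMSO) and with PB (PB+RA against PB) come from different libraries, and so do the corresponding PB effects. Across all regions the SD of the RA effect was 0.88 without PB and 0.77 with PB, and Pearson's r between them was 0.73 (n = 92108 regions, which share the libraries and are not independent, so no p is given). Regions with an RA effect above 1 numbered 13425 without PB and 11410 with PB, and those below -1 numbered 6671 and 4888. Medians follow for regions chosen on either effect. They depend on the same SDs and r, so they are not separate support for a difference. The group means carry no spread, so the part of noise in these differences was not tested. Where the effect of RA alone was above 1 (median 1.48), the median with PB was 1.10, while where the effect of RA on top of PB was above 1 (median 1.39), the median without PB was 1.32. For losses the same medians were -1.28 and -0.78, against -1.25 and -0.94. For PB, gains had medians of 1.27 without RA and 0.75 with it, against 1.25 and 0.77 in the other direction, and losses -1.23 and -0.85 against -1.24 and -0.81. Thus, over all regions, the drop seen for PB was about the same size in either direction, and that for RA was not. In the better-measured set, PB gains above 1 were again alike, at 4071 without RA and 4027 with it. PB losses below -1 were not, at 4209 and 3324. Their medians there were -1.20 without RA and -0.83 with it, against -1.18 and -0.92 in the other direction.

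**Figure D1:**
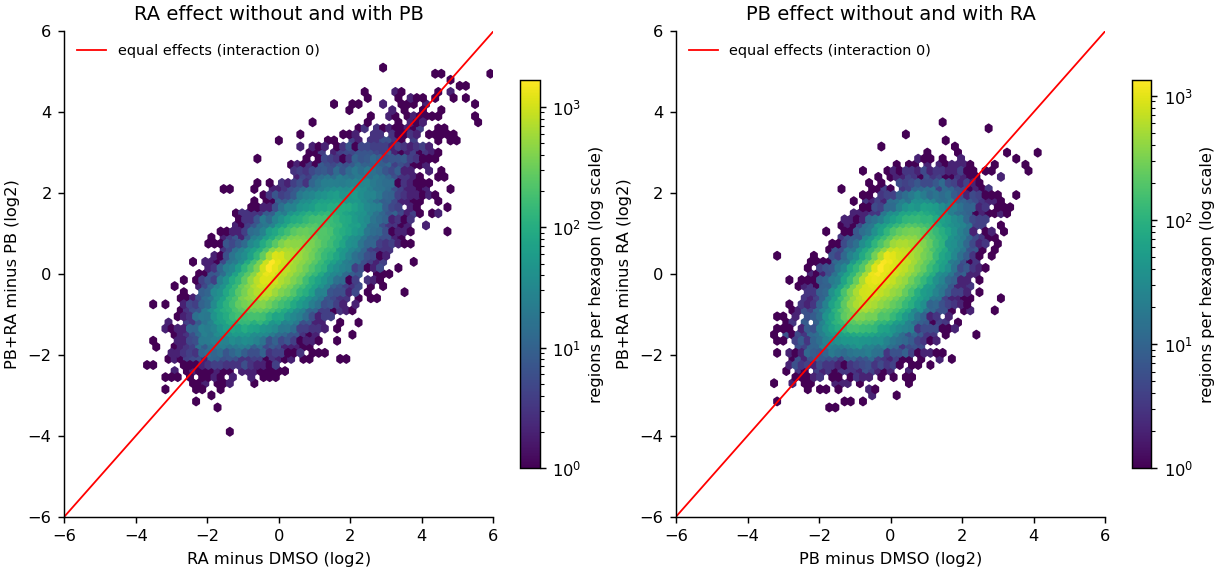
Effect of each drug without the other (x axis) and with it (y axis), as differences of deposited mean log2 concentrations, for 92108 regions, with colour for the number of regions per hexagon on a log scale and a red line at equal effects. RA effects reach further along the x axis (SD 0.88) than along the y axis (SD 0.77), while the PB effects have an SD of 0.71 on both.

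At the low end, H3K27ac was mostly higher with either drug alone, and the combination lay below the sum of these differences. Regions below -1 had median effects of 1.17 for RA, 0.66 for PB and 0.48 for the combination against DMSO, and both single drugs lay above DMSO in 76.3% of them, against 30.5% of all regions. PB+RA lay below both single drugs in 48.8%. At the high end the picture was turned around, with medians of -0.67 for RA, -0.53 for PB and 0.03 for PB+RA, both single drugs below DMSO in 63.0% (36.3% of all), and PB+RA above both in 64.6%. PB and RA enter the value with a minus sign and DMSO and PB+RA with a plus sign, so these positions are in part set by the choice of the ends and are given as a description.

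The number of libraries with a broad peak was used as a check. The count of PB+RA libraries with a peak, minus those of PB and of RA, plus that of DMSO, was below 0 at 80.8% of regions below -1 and above 0 at 6.76%. It was above 0 at 77.7% of regions above 1 and below 0 at 2.62%. Over all regions the shares below and above 0 were 29.0% and 30.5%. Peaks were called per library from the same reads as the concentrations, so the check is not independent evidence.

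Peak fold enrichment over input, which the authors deposited for each library, allowed a test across replicates. At 26508 regions with a peak in all 16 libraries, the interaction was fitted with limma on the log2 scale, after each library was shifted to a common median. At an adjusted p under 0.05 (Benjamini-Hochberg), 1 region was higher (0.00377% of those tested) and 3 were lower (0.0113%) with PB+RA than the single drugs add up to. A further look at unadjusted p gave 2362 regions under 0.05 (8.91%). The median standard error of the limma coefficient was 0.21, so an interaction near 0.5 at a single region could not be told from 0 after adjustment. With a term for libraries 1 and 2 against 3 and 4, added after the data had been seen, 6 regions were higher and 7 lower, and the 4 calls were among them. Across the fitted regions the limma coefficient and the interaction value had r = 0.69, a description of shared reads.

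PDE10A had the lowest limma coefficient of the 4 called regions. Its region, chr6:166396469-166403246, holds a start site and exonic sequence. Fold enrichment was 5.76, 5.99, 4.37 and 6.96 in the DMSO libraries, 8.73, 8.33, 7.06 and 6.39 with PB, 15.3, 15.8, 13.9 and 13.5 with RA, and 7.26, 5.96, 6.43 and 6.81 with PB+RA. The RA libraries stood above all others, and the PB+RA libraries overlapped those of DMSO and of PB. The interaction coefficient was -1.67 ± 0.19 (SE, n = 4 libraries per group; limma adjusted p = 0.000447). The group concentrations told the same story on the read scale, at 7.97 (DMSO), 8.65 (PB), 10.27 (RA) and 8.67 (PB+RA), an RA effect of 2.30 without PB and 0.03 with it. The call held when each library was left out (coefficients from -1.76 to -1.53, highest adjusted p = 0.00232) and in all 9 of 10 other planned settings in which the region could be fitted.

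The remaining 3 calls were closer to the threshold and each was lost without some of the libraries. Upstream of SH2B3, an adaptor protein that restrains cytokine signalling, the intergenic region chr12:111830992-111833250 had fold enrichments of 3.27, 3.52, 2.99 and 3.15 with DMSO, 7.56, 6.78, 4.78 and 4.30 with PB, 5.13, 4.82, 4.68 and 4.50 with RA, and 3.95, 4.10, 3.99 and 5.15 with PB+RA. Every PB and every RA library was above every DMSO library, and the PB+RA libraries lay no higher than the top of the PB libraries and overlapped those of RA. Its coefficient was -1.10 ± 0.18 (SE; limma adjusted p = 0.0372), and it stayed called in 2 of 16 fits that left out a library. In the gene body of ACSF3, a mitochondrial acyl-CoA synthetase, chr16:89215892-89220324 had 4.32, 4.08, 3.95 and 4.33 with DMSO, 6.78, 7.75, 4.84 and 4.79 with PB, 6.0, 5.07, 5.22 and 5.56 with RA, and 4.67, 4.30, 3.63 and 4.14 with PB+RA. Both single drugs lay above the combination in every library, with a coefficient of -1.01 ± 0.15 (SE; limma adjusted p = 0.0252), called in 5 of 16 such fits.

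The region called higher, chr13:78051217-78053746, is intergenic, 56063 bases from a start site of SCEL, which encodes sciellin of the epithelial envelope. Fold enrichment was 4.97, 5.79, 5.84 and 7.18 with DMSO, 5.61, 5.10, 4.16 and 4.15 with PB, 3.68, 4.69, 3.21 and 4.12 with RA, and 8.0, 7.12, 5.71 and 7.33 with PB+RA. All RA libraries were below all DMSO libraries, and all 4 PB+RA libraries were above all PB and all RA libraries. The coefficient was 1.06 ± 0.17 (SE; limma adjusted p = 0.0372), called in 3 of 16 fits without a library. The measures differed here, since the deposited concentration was higher with RA (6.88) than with DMSO (6.24), where the fold enrichment was lower.

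**Figure D2:**
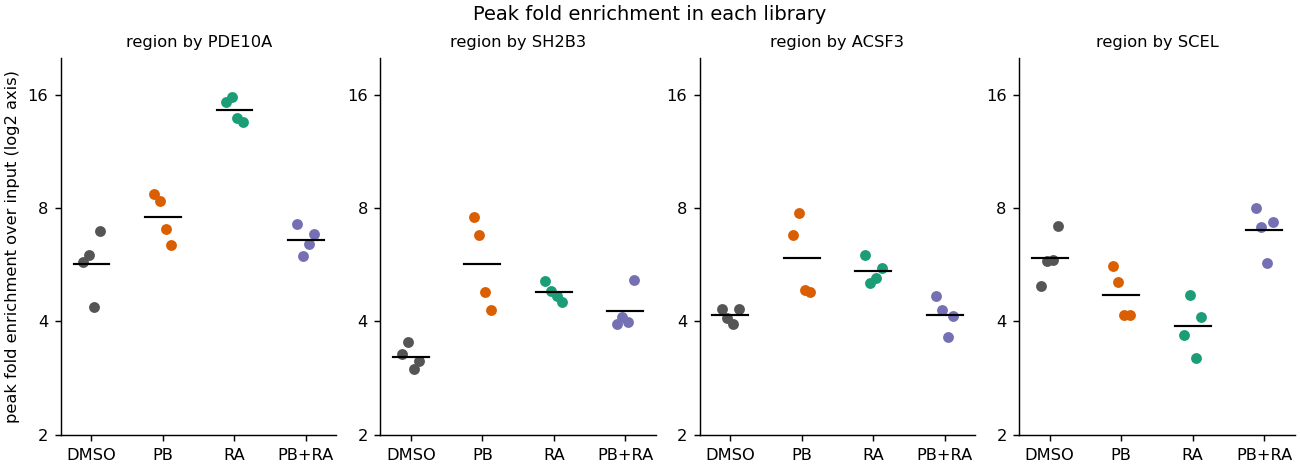
Peak fold enrichment over input (log2 axis) in each of the 16 ChIP libraries (points) at the 4 regions called for an interaction, with the group mean of log2 values as a bar (n = 4). At PDE10A the RA libraries lie between 13.5 and 15.8 and the PB+RA libraries between 5.96 and 7.26.

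A region that gains its mark in a single group has no peak in the others and could not enter that test. A fit over all 92108 regions was therefore added after the data had been seen, with the fold enrichment averaged over the whole region and bases outside peaks set to 1. It called 31 regions higher (0.0337%) and 78 lower (0.0847%) at a limma adjusted p under 0.05. Of the 4 regions called in the first fit, PDE10A (-2.15 ± 0.25, SE; limma adjusted p = 0.000493) and ACSF3 (0.0358) were called again, and those near SH2B3 (0.148) and SCEL (0.39) were not. Here a library with no peak counts as having no enrichment, so the coefficients depend on the peak caller's threshold. All 31 higher calls had a positive interaction value (median 1.66), and all 78 lower calls a negative one (median -1.56). Both measures come from the same reads, so this agreement is not independent evidence. Of the lower calls, 53 had an RA effect above 1 without PB, 6 were at start sites, 38 in gene bodies, 12 intergenic within 100 kb and 22 farther away. Of the higher calls, 19 had an RA effect below -1 without PB, and 3 were at start sites. Over all 92108 regions, 13425 had an RA effect above 1 without PB and 6671 one below -1. Start sites made up 21.6% of all regions, gene bodies 45.7%, intergenic regions 17.9% and remote regions 14.7%. RA enters the interaction with a minus sign, so the RA effects of the calls are in part set by the choice.

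FRMD4A, which encodes a FERM-domain scaffold of cell polarity, had the lowest interaction value among the better-measured regions within 100 kb of a start site. At its start-site region, chr10:13744978-13760944, no DMSO or PB library had a peak. All 4 RA libraries did, at fold enrichments of 5.24, 5.23, 3.95 and 4.24, and so did 3 PB+RA libraries, at 3.55, 3.57 and 2.76. Group concentrations were 5.56 (DMSO), 6.09 (PB), 9.69 (RA) and 7.24 (PB+RA), so the RA effect was 4.13 without PB and 1.15 with it, an interaction value of -2.98. The whole-region fit gave -2.12 ± 0.36 (SE; limma adjusted p = 0.0171), called in 14 of 16 fits without a library. All 5 regions assigned to FRMD4A lay between -3.15 and -1.75.

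Among the better-measured regions within 100 kb of a start site, the 10 lowest were 2 regions of FRMD4A, 2 of ITGB8, an integrin subunit that activates TGF-beta, and single regions near DGKI (a diacylglycerol kinase), STX18 (a SNARE of the endoplasmic reticulum), COMMD8, TENT5A, UTRN (utrophin) and TLR4 (a receptor of innate immunity), with values from -2.98 to -2.36. In none of them did a DMSO library have a peak. At DGKI the concentrations were 3.45, 5.65, 6.13 and 5.49 in the order DMSO, PB, RA and PB+RA, so it was higher with either drug and no higher with both. Of these 10 regions, the whole-region fit called that at the start site of FRMD4A only. UTRN and TLR4 differed from the rest. Their highest level was with PB, at 5.11 against 3.42 with DMSO for UTRN and 5.26 against 3.37 for TLR4, and PB+RA was at 3.19 and 3.22. Peaks were present in 3 PB libraries at each and in no other group.

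Some of the 78 lower calls of the whole-region fit are described here, picked by the name of the nearest gene. Of the 139 retinoid regions, 2 were called lower and 1 higher. Of the 458 axon and neurite regions, 1 was called lower and 1 higher. Among all 72309 assigned regions, 44 were called lower and 25 higher. An intergenic region 56935 bases from ALDH1A3, which makes RA from retinaldehyde, had a peak in 1 DMSO, 4 PB, 4 RA and 1 PB+RA libraries, and its RA effect was 1.66 without PB and -0.13 with it (coefficient -2.27 ± 0.36, SE; limma adjusted p = 0.0131). A region 14602 bases from CRABP1, a cellular RA-binding protein, had RA effects of 1.40 and 0.17 (-1.94 ± 0.29, SE; limma adjusted p = 0.0131). In the gene body of CNTNAP2, a neurexin-like adhesion protein, the RA effect was 1.87 without PB and -0.39 with it. At a remote region, 907880 bases from ROBO1, the Slit receptor, it was 1.74 and -0.30. The start-site region of SEMA3A, a repulsive axon guidance cue, was called as well (-1.28 ± 0.25, SE; limma adjusted p = 0.0374). There the concentration was 7.92 (DMSO), 8.49 (PB), 8.14 (RA) and 7.03 (PB+RA), so that the combination was the lowest of the 4 groups. It stayed called in 2 of 16 fits without a library.

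Over the regions above 1, the median RA effect was -0.67 without PB and 0.62 with it. Some regions that the whole-region fit called higher had an RA loss that was smaller with PB. In an intron of FBN1, which encodes the microfibril protein fibrillin, chr15:48864348-48867552 had fold enrichments of 7.86, 8.05, 6.65 and 6.37 with DMSO, 7.89, 9.24, 5.00 and 4.43 with PB, 2.73, 3.10 and 2.89 in the 3 RA libraries with a peak, and 5.78, 5.80, 6.22 and 4.78 with PB+RA. The RA libraries lay below all others. The RA effect on the concentration was -2.73 without PB and -0.53 with it, an interaction value of 2.2 (whole-region fit 1.69 ± 0.29, SE; limma adjusted p = 0.0188; called in 14 of 16 fits without a library). SLC1A3, a glial glutamate transporter, followed the same course, with RA effects of -2.61 and -0.81 at a gene-body region (1.60 ± 0.28, SE; limma adjusted p = 0.0188). The region 18597 bases from AOPEP, an aminopeptidase, took another course. Its RA effect was -0.01 without PB and 1.56 with it, since PB alone was at -1.24 against DMSO and PB+RA at 0.32 (1.47 ± 0.24, SE; limma adjusted p = 0.0131; called in all 16 fits without a library).

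Within 100 kb of a start site, the 10 highest of the better-measured regions were those by HAX1 (2.49), ACTL8 (2.47), FBN1 (2.2), ATOH8 (2.11), PRSS51, CPQ, GPR26, CABIN1, SOST and KCTD12 (1.98). They were of 2 kinds. CPQ and CABIN1 had a peak in all 4 PB+RA libraries and in no other library, with concentrations of 6.64 and 6.43 with PB+RA against 3.76 to 5.01 in the other groups. The other 8 had a peak in all 4 DMSO libraries and a lower concentration with either drug. The whole-region fit called those by HAX1, FBN1 and GPR26, the last in 4 of 16 fits without a library. ATOH8, a bHLH factor, was the only one with a start site inside its region. Its concentrations were 6.85 (DMSO), 3.96 (PB), 5.36 (RA) and 4.58 (PB+RA), so PB alone was lowest. Its whole-region coefficient, 1.08 ± 0.52 (SE), was not called (limma adjusted p = 0.407). The 250 bases before its start site are shown, with a match to the bHLH E-box CAGCTG in capitals, a sequence found in the central 500 bases of 28.0% of all regions.
ATOH8 (chr2:85980864-85981113, plus strand): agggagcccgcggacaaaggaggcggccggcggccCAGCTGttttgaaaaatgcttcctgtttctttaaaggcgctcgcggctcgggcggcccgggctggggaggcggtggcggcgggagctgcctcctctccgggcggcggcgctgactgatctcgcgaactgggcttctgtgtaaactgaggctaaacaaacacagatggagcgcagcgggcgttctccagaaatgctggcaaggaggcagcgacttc

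Without the filter on signal, the regions at both ends were weak. Again within 100 kb of a start site, the 10 lowest (near SLC26A5, FN1, SPRY1, SLC4A7, PDE10A, ZNF22, ASAP2, FRMD4A, LDB2 and MAPKAPK3) ran from -3.98 to -3.04, and the 10 highest (near GTF2IRD2, MAPT, FECH, RPAP2, SEPHS1, RAB42, NKX6-1, SVIL, SDK1 and SNED1) from 3.66 down to 2.68. No such low region had a peak in more than 2 libraries of a group, and none of these 20 regions was called in the whole-region fit. Group concentrations went down to 0 at several. At the region in MAPT, the gene of tau, the concentrations were 2.15, 0.73, 0.72 and 2.87 and only 2 PB+RA libraries had a peak. Such values are differences between very low signals.

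**Figure D3:**
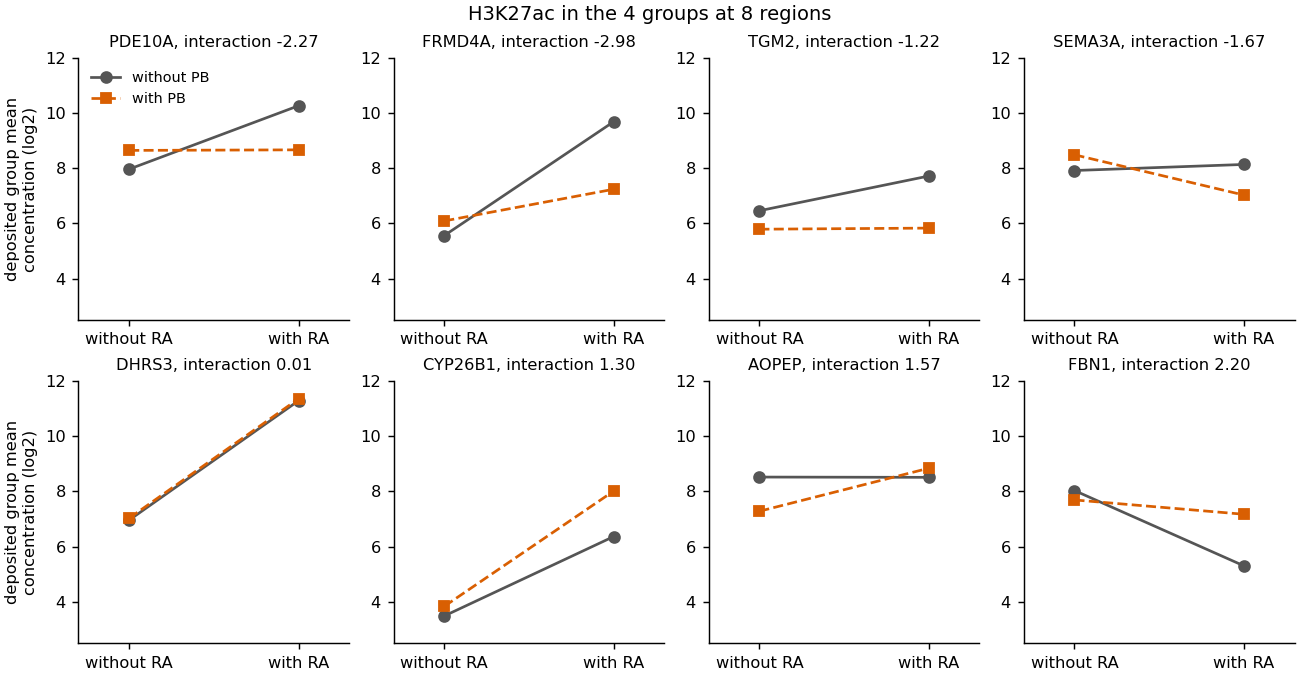
Deposited group mean concentrations (log2) without and with RA, in cells without PB (grey circles) and with PB (orange squares), at 8 regions. Parallel lines mean additivity, as at DHRS3 (0.01), and diverging or crossing lines an interaction, from -2.98 at FRMD4A to 2.2 at FBN1.

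Genes that handle or answer to retinoids differed at their start sites in how far the RA effect changed with PB. Some had RA effects of similar size without and with PB, such as DHRS3 and RARB, while CYP26B1 and TGM2 did not. Values near 0 were common everywhere, since 61.2% of all regions had an interaction value within 0.5 of 0. Whether the start sites of this list differ from that background was not tested. Of 25 listed genes, 18 had a region within 100 kb, with 139 regions in all. At the region nearest to the start site, DHRS3, which reduces retinaldehyde to retinol, was higher with RA by 4.33 both without and with PB, an interaction value of 0.01. Its fold enrichments were 3.45, 2.79, 3.71 and 3.39 with DMSO, 3.80, 3.62, 3.51 and 3.33 with PB, 11.1, 11, 8.48 and 9.19 with RA, and 15.3, 11.3, 11 and 9.47 with PB+RA. The RA and PB+RA libraries overlapped and stood apart from the rest. CYP26A1, which oxidises and clears RA, had an RA effect of 4.60 without PB and 5.00 with it. At CYP26A1 no DMSO library and 1 PB library (2.86) had a peak, and fold enrichment was 7.63, 7.67, 6.85 and 8.38 with RA and 14.3, 10.4, 12.7 and 11.8 with PB+RA, without overlap. Its interaction value was 0.41, and the whole-region coefficient 0.61 ± 0.26 (SE; limma adjusted p = 0.353).

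Among the regions nearest to each start site, the related enzyme CYP26B1 had the highest value of the list, 1.3. Over all regions of the list, values ran from -1.8 to 2.16. The start-site region of CYP26B1 had no peak with DMSO or PB, peaks of 2.68, 3.19 and 3.24 in 3 RA libraries, and of 3.78, 3.6, 4.53 and 4.83 with PB+RA. Every PB+RA library was above every RA library, and the RA effect was 2.88 without PB and 4.18 with it, although the whole-region coefficient of 1.14 ± 0.41 (SE) had a limma adjusted p of 0.261. TGM2, a transglutaminase long known to be induced by RA, was the lowest of these nearest regions at -1.22, with an RA effect of 1.26 without PB and 0.04 with it (-1.57 ± 0.36, SE; limma adjusted p = 0.0763). Between these, the RA-binding protein genes CRABP1 (RA effects 1.42 and 1.05) and CRABP2 (1.16 and 1.71), and the receptor genes RARA (0.63 and 0.88), RARB (0.92 and 0.84) and RARG (0.89 and 1.00) were higher with RA in both settings.

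The remaining members at start sites were ALDH1A2 (-0.72), ALDH1A3 (-0.14), RAI1 (0.26), NRIP1 (0.44), RARRES1 (0.72) and RXRA (0.79). At ALDH1A3 and RAI1 the RA effect without PB was only -0.07 and -0.02, so their small values do not show a kept RA response. Farther from a start site lay the regions of RDH10 (-0.48, 58557 bases) and CYP26C1 (0.29, 5022 bases). None of the 37 retinoid regions in the main limma fit was called. Over the list's 139 regions the median was -0.08, against 0.12 for all 72309 assigned regions, with 9 above 1 (6.47%, against 4.01%) and 14 below -1 (10.1%, against 4.68%). The median RA effect of these regions was 0.53 without PB and 0.35 with it. In the whole-region fit 1 of the 139 was called higher and 2 lower, against 25 and 44 of all 72309 assigned regions.

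The adrenergic core circuit, the set of factors that hold these cells in their sympathetic state, had smaller RA losses of H3K27ac with PB than without it at several start sites, though none passed the test. At the region nearest to the start site, the circuit's median interaction value was 0.33, no higher than the 0.375 of all assigned genes. HAND1, a bHLH partner of the circuit, had RA effects of -1.68 without PB and -0.92 with it and an interaction value of 0.76, and GATA3, a zinc-finger factor, -1.35 and -0.64 and a value of 0.71.

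Further members were ISL1 (0.31), HAND2 (0.49), TBX2 (0.69), TFAP2B (0.28), GATA2 (0.30), MEIS2 (0.35), TWIST1 (0.44), PHOX2A (0.53), MYCN (0.73, at a region 18462 bases from its start), TCF12 (0.26), TCF3 (0.15), SOX11 (0.13), INSM1 (0.08), KLF7 (0.05) and LMO1 (-0.33). Thus 17 of the 18 members with a region were above 0 and 1 was below. This share has to be read against all genes, of which 12259 of 15005 were above 0 at the region nearest to the start site. Of the circuit's 197 regions, 18 (9.14%) were above 1 and 3 (1.52%) below -1, against 4.01% and 4.68% of all assigned regions. The circuit's median was 0.13, against 0.12 for all assigned regions, and none of its regions was called in either fit. In the retino-sympathetic circuit, the factors that RA brings in, the regions nearest to the start sites of RARB (-0.08) and RARA (0.24) were near additivity. SOX4 was at 0.43 and MEIS1, a homeobox cofactor, at 0.79, with RA effects of 0.05 without PB and 0.84 with it. Over all 40 regions of this circuit the median was -0.025, with 2 above 1 (5.0%) and 5 below -1 (12.5%).

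Cell cycle genes, which PB reaches through CDK4 and CDK6, showed no shift as a list. The 149 regions of E2F targets had a median of 0.08, against 0.12 for all assigned regions. Of them, 5 were above 1 (3.36%, against 4.01%) and 8 below -1 (5.37%, against 4.68%). E2F1 was at 0.92, at an intergenic region 5310 bases from its start. There PB alone was at -0.99, RA alone at -1.21 and PB+RA at -1.28 against DMSO. CDC45, a replication helicase subunit, was at 0.52. CCNE1, cyclin E, was at -0.29. Among the nearest regions of the list, H2AZ1 was lowest at -1.25. That weak region lay 57618 bases away, with a peak in 2 PB libraries only. The G1 regulators had a median of 0.16 over 63 regions, with 1 above 1 (1.59%) and 0 below -1. Their nearest regions ran from CDK6 (0.10) and CCND3 (0.14) to CDKN2B (0.84), a CDK4 and CDK6 inhibitor, and RBL2 (0.87), an RB relative.

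Among neuronal lists the medians stayed close to that of all assigned regions, 0.12. They were 0.06 for axon and neurite genes (458 regions), 0.11 for synaptic vesicle and release, 0.05 for the postsynaptic membrane, 0.08 for dense-core vesicles, 0.12 for ion channels, 0.04 for cholinergic and 0.19 for catecholamine genes. NEFH, a neurofilament subunit, was at 1.21, with PB at -0.93, RA at -1.54 and PB+RA at -1.26 against DMSO, and DPYSL3, a growth cone protein, at -0.76. In the catecholamine list TH, the rate-limiting enzyme, was at 0.71, with RA effects of -1.13 without PB and -0.43 with it, while DBH was at -0.40. In the cholinergic list CHAT was at 0.96 and MNX1, a motor neuron factor, at 0.72. For the synaptic list DNM3 was at 1.05 and RIMS1 at -0.80, and for the postsynaptic list GRIA1, an AMPA receptor subunit, was at 1.00.

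Among lists of other states, the shares of regions below -1 were largest, against 4.68% of all assigned regions, for neural crest and Schwann genes (8 of 80, 10.0%), immune genes (3 of 23, 13.0%) and extracellular matrix and junction genes (23 of 231, 9.96%). The last held the start sites of ITGA4 (-1.60), an integrin with peaks in all 4 RA libraries and 1 DMSO library, and LAMA2 (-1.50), a laminin chain with no DMSO peak and a peak in all 12 treated libraries. At LAMA2 the effect against DMSO was 1.35 (PB), 1.29 (RA) and 1.15 (PB+RA) (whole-region -1.67 ± 0.35, SE; limma adjusted p = 0.0496, lost in every fit without a library). The mesenchymal list had a median of 0.13, with SNAI2, a repressor of epithelial genes, at 1.26. At SNAI2 the PB effect was -1.41 without RA and -0.15 with it. HOX genes had the highest median, 0.27 over 27 regions, led by HOXD10 (1.57) and HOXD9 (1.13), neighbours in 1 cluster. Medians were 0.18 for BMP and TGF-beta genes (TGFBR2 -1.12), 0.19 for growth factor receptors (GFRA1 -1.01, GFRA2 0.93), -0.05 for neural crest and Schwann genes (FOXD3 -1.05), 0.15 for sarcomere and 0.12 for housekeeping genes. Immune and endothelial genes, which these cells should not use, had medians of -0.10 over 23 and 0.10 over 39 regions.

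**Figure D4:**
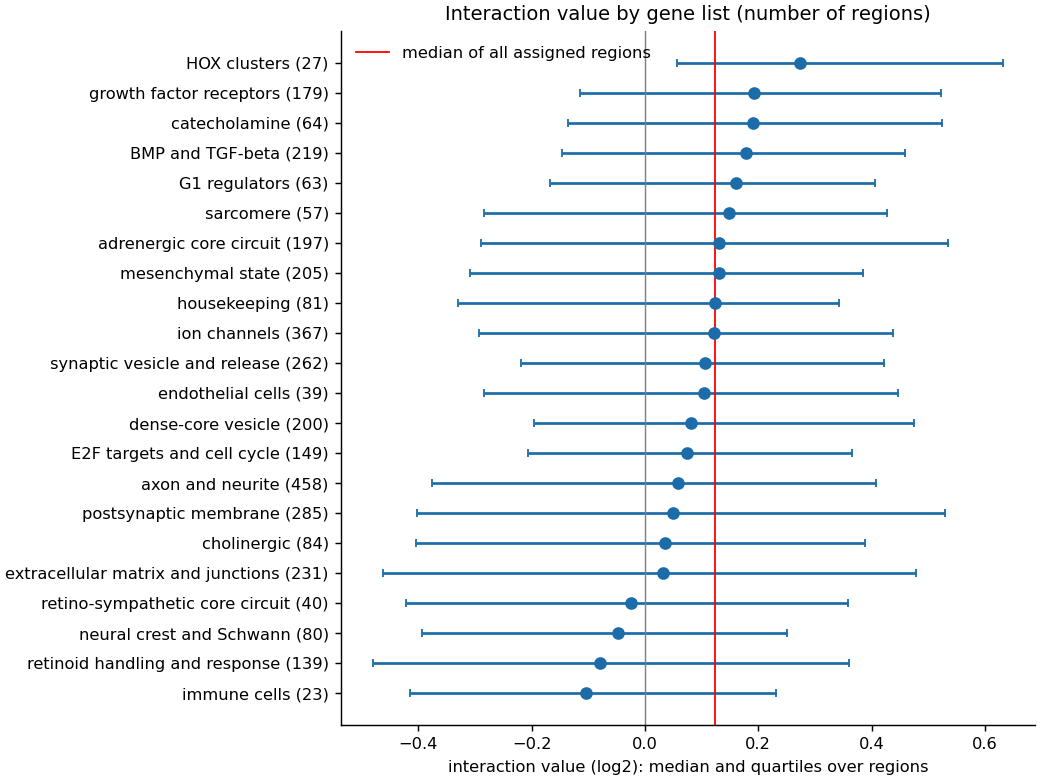
Interaction value (log2) over the regions of each of 22 gene lists, as median (point) and quartiles (bars), with the number of regions in brackets and a red line at the median of all assigned regions. Quartiles overlap 0 in every list but the HOX clusters, and medians run from -0.10 to 0.27.

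Some genes carried the same sign across many regions. These were picked after their values were seen, and neighbouring regions share a locus, so they are given without a test. Of 4995 genes with at least 5 regions, 8 had every region below -0.5 and 10 every region above 0.5. All 10 regions of DUSP6, the phosphatase that shuts off ERK, lay between -2.70 and -0.79, with a median RA effect of 2.53 without PB and 1.26 with it. B4GALT6, a lactosylceramide synthase, had 6 regions from -2.98 to -1.06, where the median effects were 1.21 (PB), 0.82 (RA) and 0.63 (PB+RA). On the other side, KCNK10, a background potassium channel, had 11 regions from 0.66 to 1.55, with a median RA effect of -0.10 without PB and 1.10 with it, and in the 5 regions of CACNG2, an AMPA receptor auxiliary subunit, the median RA effects were 0.06 and 1.37.

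Position in the genome went with the interaction value. Start-site regions had a median of 0.32 (n = 19896), gene bodies 0.01 (n = 42134), intergenic regions within 100 kb 0.09 (n = 16483) and remote regions -0.06 (n = 13579). Start-site regions made up 21.6% of all regions but 11.6% of those above 1 and 7.28% of those below -1, so both ends were poor in them, and remote regions made up 14.7%, 18.1% and 25.1%. The start-site median was thus a small shift of many regions: the median effects were -0.37 (PB), -0.14 (RA) and -0.22 (PB+RA). The start-site shift was smaller on the other measure, with a median limma coefficient of 0.13 over the 12366 start-site regions fitted and -0.07 over 7714 gene-body regions.

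Signal strength and base composition moved with the interaction value of the concentrations. Across 10 classes of mean concentration the median rose from -0.06 in the lowest to 0.36 in the highest, and across 10 classes of GC content from -0.18 (GC up to 36.8%) to 0.20 (59.3% and more). On fold enrichment the classes of GC content differed little, with median limma coefficients of -0.04 in the lowest class and 0.06 in the highest, and whole-region medians of 0.04 and 0.00. Regions below -1 had a median GC content of 41.9% and regions above 1 of 46.7%, against 47.1% in all. Start sites are strong and rich in GC. After centring by GC content their median was 0.16, and after centring by signal strength 0.07. Whether the authors' normalisation of the 3 comparisons sets this shift was not tested.

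**Figure D5:**
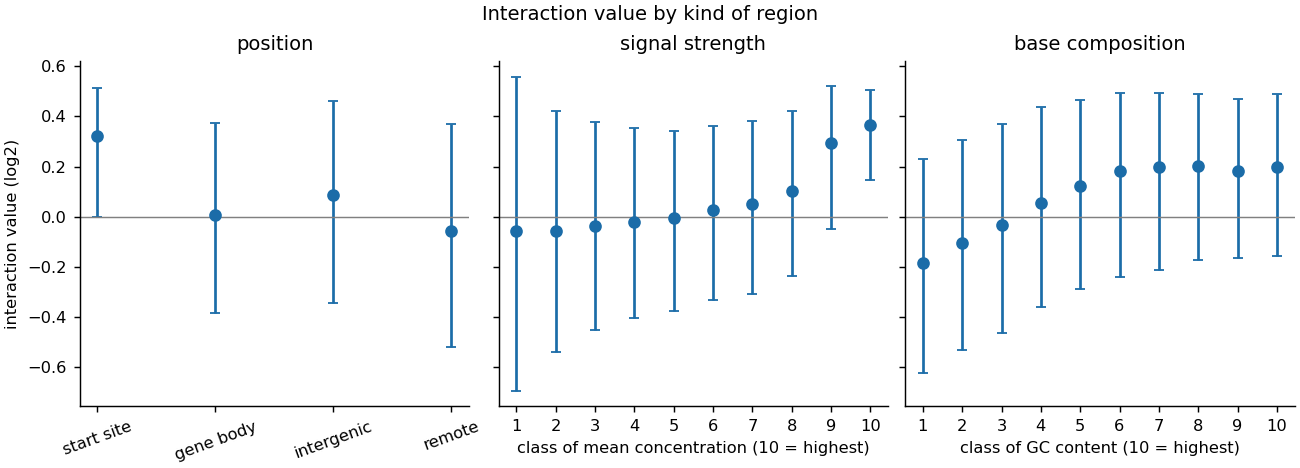
Interaction value (log2) by position, by class of mean concentration and by class of GC content, as median (points) and quartiles (bars) over all regions. The median reaches 0.32 at start sites, 0.36 in the strongest class and is lowest, at -0.18, in the class of lowest GC content.

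Motifs separated the ends little. In the central 500 bases, DR5 was found in 0.191% of all regions, 0.408% of those above 1 and 0.193% of those below -1, which are 16 and 10 regions. The E-box CAGCTG was found in 28.0%, 31.8% and 23.9%, and the GATA sequence AGATAA in 28.6%, 33.7% and 33.4%. The AP-1 site TGAGTCA was found in 11.5%, 11.7% and 11.3%, and the cAMP response element TGACGTCA in 0.42%, 0.204% and 0.406%. The E2F sequence TTTCCCGC was less frequent at both ends than in all regions (0.28% and 0.367% against 0.753%), where start sites were less frequent too, and so was TTTGGCGC (0.229% and 0.251% against 0.307%). DR2, a repeat with a shorter spacer, was found in 0.952%, 1.02% and 1.08%, and DR1 in 0.175%, 0.255% and 0.116%. No test was run on these shares.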

How the data were processed

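H3K27ac ChIP-seq of SK-N-BE(2)C cells was analysed in 16 ChIP libraries, grouped by sample title. Per the submitters' processing notes, the authors used fastp 0.12.4, Bowtie2 2.4.4 (hg19), MACS2 2.2.7.1 and DiffBind 3.4. Broad peaks were called per library. For each peak the deposited values are a ratio, the fold enrichment against input, and −log10 q. The deposited comparison tables hold the authors' mean log2 concentration of each group, used here, and the authors' fold, p-value and FDR, not used. No test on counts could be run, since the tables hold group means.

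A region took the mean fold enrichment of its peaks, weighted by overlapping bases. The interaction was fitted with limma 3.58.1 (intensity trend) in R 4.3.3, checked on simulated data, and library properties were tested with 100000 permutations of additive residuals. Start sites are those of protein-coding transcripts of GENCODE 44 on GRCh37 (78714), and regions were assigned to the nearest within 100 kb. The nearest gene need not be the one regulated. The linear alternative compared PB+RA with PB plus RA minus DMSO, with a pseudocount of 1.

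The members, 22 gene lists and motifs were chosen with earlier results of these data known. Named were the 10 most extreme regions of each end within 100 kb of a start site, with and without the filter (a peak in 3 of 4 libraries of a group, all concentrations 3 or more), limma calls, up to 2 members at each end of each list, and retinoid and core circuit genes. The 16 regions on other sequences were left out of gene and sequence steps. Some items are not reported here.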

Additional observations from a re-analysis of the deposited data

Results flagged for a closer look

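The difference between the RA effect without and with PB passed the limma test of the interaction at 4 regions, with coefficients of -1.67 at PDE10A, -1.10 near SH2B3, -1.01 in ACSF3 and 1.06 near SCEL. In 2 of 40 groups of 4 libraries examined, 1 library stood apart by Dixon's criterion, where chance gives about 1 in 20. The median GC content of regions with a peak ranged from 48.4% to 49.5% in the DMSO libraries (Dixon ratio 0.903), lowest in replicate 3, which also had the fewest peaks (64516). Near SH2B3, fold enrichment in the PB+RA libraries ranged from 3.95 to 5.15 (Dixon ratio 0.86), highest in replicate 4. Without that library the SH2B3 coefficient was -1.21 (limma adjusted p = 0.00896).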

How the results depend on the processing

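The number of regions called for an interaction in the first limma fit, 4, depended on the processing. It was 12 with quantile normalisation, 2 with no normalisation between libraries, 574 (178 higher, 396 lower) with every region kept and a missing peak set to 1, 0 where peaks covered at least 0.5 of the region in all libraries (272 of 5623 at an unadjusted p under 0.05), 2 with peaks of −log10 q of at least 5, 1 with the highest peak of a region, 11 after centring by GC content and 2 without an intensity trend. Leaving out 1 library at a time gave 1 to 6 calls. Settings chosen after seeing the data gave 109 calls (whole-region signal) and 13 (a term for replicates 1 and 2 against 3 and 4). The whole-region count ranged from 15 (without RA replicate 1) to 103 without 1 library. The cause of these shifts was not tested.

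Replicate numbers were not taken to pair the samples, because not every same-numbered pair had deviations correlated above 0.1 (16 of 24, r from -0.257 to 0.598) and the labels name no shared batch. A shared structure of the numbers is still visible in these values. With the replicate number as a block, 8 regions were called (3 higher, 5 lower), and 374 on the whole-region signal. The block left the estimates for library properties as they were, with adjusted p = 0.875 by exact sign-flip permutation (n = 4 blocks, smallest p possible 0.125).

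Regions above 1 numbered 11267 on a linear scale, 2241 with all 4 concentrations at least 3 and 2480 with a peak in 3 of 4 libraries of a group. Regions below -1 numbered 3112, 2777 and 2966. The median of start-site regions was 0.158 after centring by GC content and 0.07 after centring by mean concentration, and that of intergenic regions -0.035 after centring by GC content. Of 22 list medians, 4 changed sign with regions within 10 kb only, 5 with GC centring, 2 on the linear scale and 9 after centring by mean concentration. Of 179 named regions, 8 changed sign on the linear scale, 7 with GC centring and 16 after centring by mean concentration. Read depth per library was unknown, and concentrations were group means without a spread.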

Other observations

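Other calls of the whole-region fit were of several forms, and those near SYN3, DDX18 and PKDCC held in all 16 fits without a library. Regions are named by the nearest start site. In SYN3, which encodes a synapsin of synaptic vesicles, a gene-body region had a peak in 2 DMSO, 4 PB, 4 RA and 1 PB+RA libraries, with an RA effect of 0.51 without PB and -0.80 with it (-2.41 ± 0.38, SE; limma adjusted p = 0.0131). An intergenic region 92453 bases from DDX18, an RNA helicase gene, was high with PB only. Its concentrations were 7.72 (DMSO), 9.74 (PB), 7.19 (RA) and 7.41 (PB+RA), so the PB effect was 2.02 without RA and 0.23 with it (-1.92 ± 0.31, SE; limma adjusted p = 0.0131). Among higher calls, a remote region 158961 bases from PKDCC, a secreted kinase gene, was low with RA only, at 7.83 against 9.04 (DMSO), 8.98 (PB) and 9.08 (PB+RA), with a coefficient of 1.56 ± 0.25 (SE; limma adjusted p = 0.0131). In an intron of GTF2F2, a subunit of the transcription factor TFIIF, all 4 DMSO and all 4 PB+RA libraries had a peak, but only 1 PB and 1 RA library did (2.22 ± 0.40, SE; limma adjusted p = 0.0245), and this call was kept in 9 of 16 such fits.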
